A study of Mus musculus with 4 samples.

Results

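Spots rich in smooth muscle transcripts were examined in a spatial transcriptome of mouse dorsal skin. Each spot of the Visium array captures polyadenylated RNA from a small disc of tissue that can hold several cells, so a spot is described here as a region and not as a cell. Kept spots had at least 250 detected genes. A spot was scored by the mean over *Acta2*, *Tagln*, *Myh11*, *Cnn1* and *Myl9* of the natural logarithm of 1 plus its UMIs (unique molecular identifiers, the counted RNA molecules) per 10000, and the top 4% of each slice were called smooth muscle-rich. This gave 256 spots of 6411, with 66, 70, 62 and 58 in slices 1 to 4.

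All 4 slices came from one group of *R26-tdTomato; Krox20-CreERT* mice, in which 4-hydroxytamoxifen at P2 (postnatal day 2) activated a Cre recombinase made from the *Krox20* (*Egr2*) locus, and skin was taken at P38. Each 10 μm section plane held skin of the same 3 mice, so the slices are technical replicates, and p-values measure the spread between slices and not between mice. The paper's caption counts 4 skin samples and states that the 4th section was left out for its distorted structure. The sources used here do not say which slice or which spots that section is, so all spots of all slices were kept. Results without each slice were computed. No untreated or Cre-negative slice was analysed here, and all comparisons are between regions of the same slices. The slices held 26910422, 24128004, 21384253 and 19393026 UMIs. Smooth muscle-rich spots had medians of 11534, 9112, 9180.5 and 11214.5 UMIs in slices 1 to 4, below the 14830, 12176, 12056 and 11666.5 UMIs of the other kept spots. The slices shared 1840 spot barcodes, which name array positions and not cells.

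Smooth muscle in hairy skin has several homes. The arrector pili muscle is a thin bundle that runs from the hair follicle bulge to the upper dermis and raises the hair under sympathetic nerve control. Its anchoring at the bulge involves nephronectin (*Npnt*), a matrix protein laid down by bulge keratinocytes, and its receptor integrin α8 (*Itga8*). Vascular smooth muscle wraps arteries and veins, pericytes wrap capillaries, and a contractile dermal sheath surrounds the lower follicle. *Acta2* and *Tagln* are made in arrector pili, vascular smooth muscle and dermal sheath, and little in most capillary pericytes, so the score does not separate the former and reaches capillary pericytes poorly. The panniculus carnosus below the dermis is skeletal muscle.

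The genes of the score chose the spots, and their values are given without a test. *Acta2*, smooth muscle α-actin, stood at 586, 816, 580 and 637 CPM (counts per 1000000 UMIs) in the smooth muscle-rich spots of slices 1 to 4. It stood at 70.7, 71.8, 67.4 and 75.7 CPM in the other kept spots. *Myh11*, smooth muscle myosin heavy chain, averaged 173 ± 37.6 CPM (SD, n = 4 slices) against 8.07 ± 1.21 CPM, and *Cnn1*, calponin, averaged 105 ± 22.5 against 3.33 ± 0.50 CPM. *Myh11* was detected in 197 of the 256 spots. *Myl9*, the regulatory light chain, was at 474 ± 80.5 and 63.5 ± 2.09 CPM, and *Tagln*, transgelin, at 103 ± 23.5 and 18.4 ± 2.13 CPM. The score fell off gradually. The lowest smooth muscle-rich spot and the highest other spot scored 0.764 and 0.763 in slice 1, 0.852 and 0.847 in slice 2, 0.695 and 0.693 in slice 3, and 0.729 and 0.719 in slice 4. Between 31 and 44 spots a slice lay within 10% of the lowest accepted score.

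Smooth muscle genes are classically driven by serum response factor and myocardin through the CArG box, a short motif that reads alike on both strands. It was searched as 10 bases that read CC, then only A or T, then GG, without mismatch. Variants with another base inside were not counted, so a gene without a match can still hold one. In the 250 bases before each RefSeq start (GRCm38.p6), 1.62% of 27025 genes held a match in at least 1 window. Windows were held for 3 score genes, *Acta2*, *Cnn1* and *Myl9*, and only that of *Myl9* matched. Of 20 other contractile genes with a window, *Vcl* and *Fhl2* matched, and of 14 skeletal muscle genes *Acta1* and *Myh4*. The stretches below are shown because they carry the boxes of a score gene, of a contractile gene whose level in these spots did not pass the test, and of *Fbxl22*, an F-box protein gene of contractile cells that did. Capitals mark the CArG box, and sequence covered by an annotated exon was left out, except that for *Fbxl22*, whose box lies in an annotated exon of the neighbouring gene *Usp3*, 10 bases on each side of the box are given.
*Myl9*, chr2:156775214-156775407, plus strand: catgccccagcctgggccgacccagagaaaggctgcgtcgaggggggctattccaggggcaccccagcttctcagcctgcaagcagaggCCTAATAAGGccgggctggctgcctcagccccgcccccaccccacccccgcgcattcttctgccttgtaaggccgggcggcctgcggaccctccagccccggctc
*Vcl*, chr14:20929148-20929382, plus strand: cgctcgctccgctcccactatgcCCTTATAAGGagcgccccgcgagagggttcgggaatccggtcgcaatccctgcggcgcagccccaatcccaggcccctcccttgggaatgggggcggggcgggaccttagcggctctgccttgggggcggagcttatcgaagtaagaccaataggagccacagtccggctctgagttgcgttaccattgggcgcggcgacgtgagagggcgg
*Fbxl22*, chr9:66514796-66514825, minus strand: aaaagaaatcCCTTTTAAGGaaaacttgta
The boxes began 161, 227 and 222 bases before the starts of *Myl9*, *Vcl* and *Fbxl22*, at positions -161, -227 and -222. A match is a description of these letters and not of a bound site.

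The smooth muscle-rich spots lined the epidermis. Distance was counted in steps on the hexagonal grid to the nearest epidermis-rich spot, one of the top 10% of the slice by *Krt1*, *Krt10* and *Lor*, which encode keratins and loricrin of the differentiating epidermis. Of the 256 spots, 62 were themselves epidermis-rich, 147 lay at 1 step and 25 at 2 steps, which together made 91.4%. At 1 step, 18.9 ± 0.81% (SD, n = 4) of all spots were smooth muscle-rich. From 3 steps on, the mean share at each step was between 0% and 0.92%. The mean distance was 1.33, 1.11, 1.26 and 1.33 steps in slices 1 to 4, against 4.14, 4.30, 3.73 and 4.00 steps in the other kept spots. The difference of -2.78 ± 0.30 steps (SD, n = 4) had the same sign in 4 of 4 slices, for which an exact two-sided sign-flip test over slices gives p = 0.13, the smallest that 4 slices allow.

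**Figure D1:**
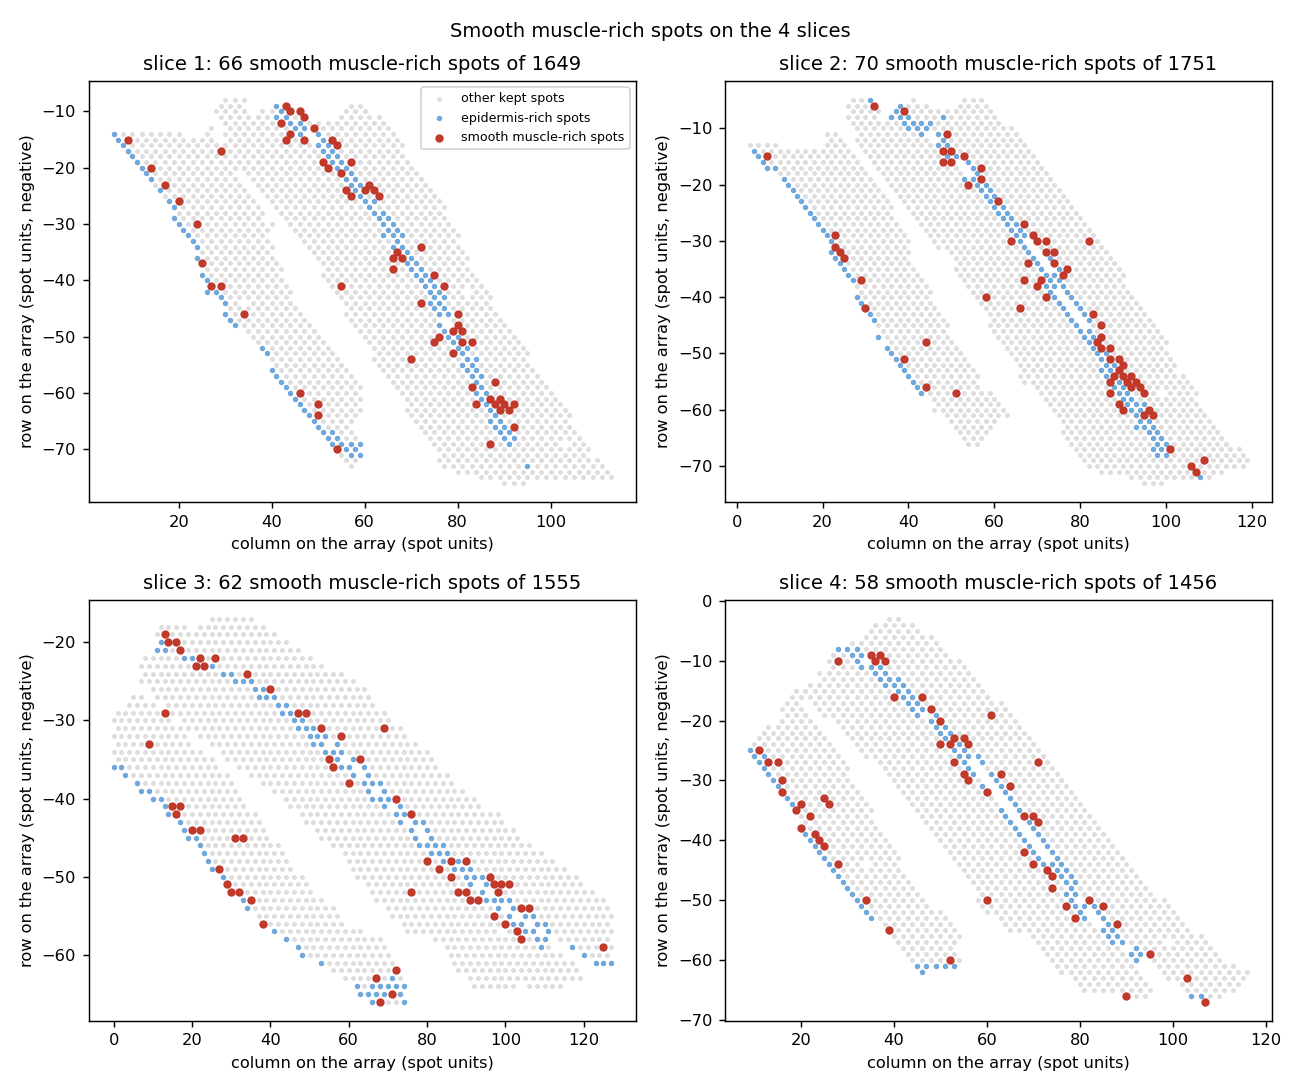
Array position of every kept spot in the 4 slices (axes in array columns and rows), with epidermis-rich spots in blue and smooth muscle-rich spots in red. The red spots follow the blue bands, and 91.4% of them lie within 2 steps of an epidermis-rich spot.

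**Figure D2:**
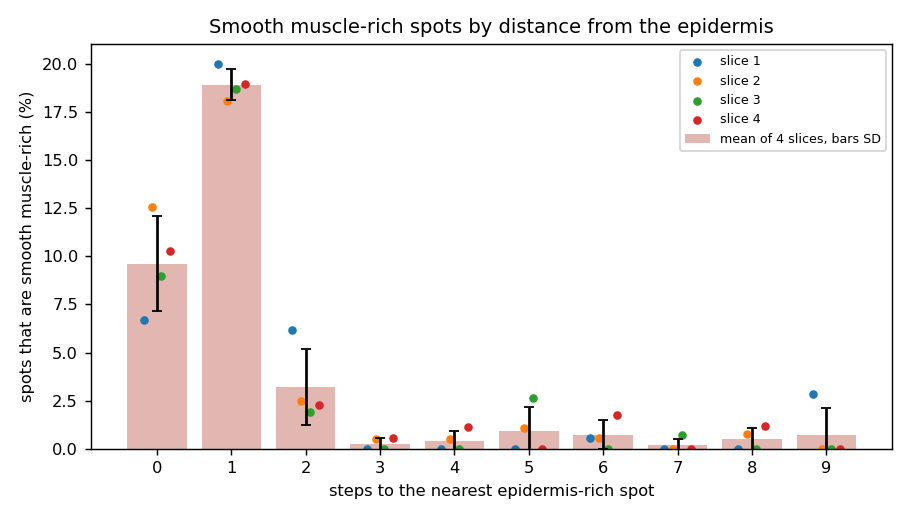
Share of spots that were smooth muscle-rich (%) by steps to the nearest epidermis-rich spot, as the mean of 4 slices with SD and each slice as a point. The share peaks at 18.9% at 1 step and is below 1% from 3 steps on.

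Some of the spots touched one another and others stood alone. In slices 1 to 4, 35, 40, 34 and 25 of them touched at least 1 other smooth muscle-rich spot. The share of a smooth muscle-rich spot's adjacent spots that were also smooth muscle-rich was 16.4%, 16.7%, 14.3% and 11.1% in slices 1 to 4, beside the 4% that the rule fixed for the slice and the 18.9% of all spots at 1 step from the epidermis. They formed 43, 42, 40 and 42 separate groups, of which 31, 30, 28 and 33 were single spots. The widest group held 7, 13, 5 and 5 spots.

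Several muscle genes were lower already 1 step away, and others were not. Among spots at 0 to 2 steps from the epidermis, *Actg2*, smooth muscle γ-actin, averaged 173 ± 24.8 CPM in the smooth muscle-rich spots, 24.7 ± 5.75 CPM in the spots that touched them, 14.9 ± 4.50 CPM at 2 steps and 9.79 ± 2.83 CPM at 3 or more steps. *Itga8* followed with 25.7 ± 2.08, 7.12 ± 1.63, 3.98 ± 0.57 and 3.01 ± 1.71 CPM. *Des*, desmin, the intermediate filament protein of muscle, went from 224 ± 33.3 to 63.3 ± 10.4 CPM in 1 step and then stayed between 58.2 and 59.5 CPM. *Rgs5*, a pericyte gene, went from 53.5 ± 12.7 to 32.5 ± 6.48 CPM with overlapping slices at the following steps. *Smtn*, smoothelin, was level, at 168 ± 33.3, 174 ± 17.7, 168 ± 22.5 and 174 ± 15.3 CPM. These rings are descriptions, since the spots at their centre were chosen by smooth muscle genes.

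**Figure D3:**
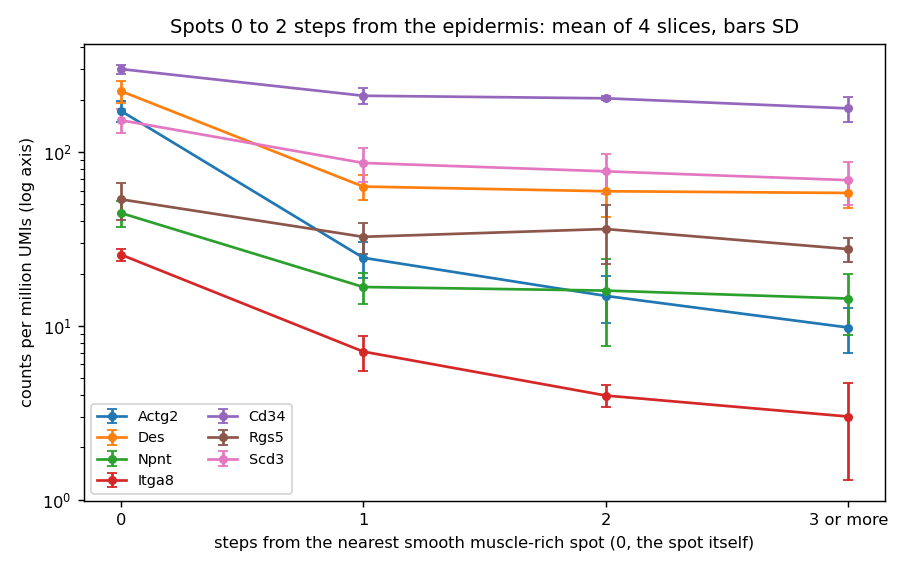
Level (CPM, log axis) of 7 genes by steps from the nearest smooth muscle-rich spot, among spots 0 to 2 steps from the epidermis, as the mean of 4 slices with SD. From the spots themselves to their neighbours, *Actg2* falls from 173 to 24.7 CPM and *Itga8* from 25.7 to 7.12 CPM.

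The first comparison asked which other transcripts shared a spot with the score genes. The spots were chosen on 5 genes of the same transcriptomes, so the tests of other genes speak of transcripts found together and not of an independent sample. Counts were summed per slice over smooth muscle-rich and over other kept spots and the sums were tested by quasi-likelihood in edgeR, with the slice as a block and Benjamini-Hochberg adjustment over 13722 genes. Outside the score, 2456 genes were higher (17.9% of those tested) and 2381 lower (17.4%) at an adjusted p under 0.05. Without slice 4 the counts were 2195 and 2180. With all 4 slices, 1207 were at least 2-fold higher and 581 at least 2-fold lower. Because the sums of the smooth muscle-rich spots were much the smaller, 1 UMI in each of them was enough to reach the level of the low-count filter. In all, 643 of the tested genes did not reach the filter level of 1.03 CPM in every sum of the other spots, and of these 199 were called higher and 0 lower. Among the remaining 13079 genes, 2257 were higher and 2381 lower. In such sums, fewer cells of a type and less RNA per cell cannot be told apart. The lists described next hold only a part of these genes.

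Among the contractile genes outside the score, 16 of 25 were higher and 2 lower, with a median log2 fold change of 0.55 beside -0.04 over all genes tested. *Actg2* stood at 137, 179, 152 and 140 CPM in slices 1 to 4 against 8.64, 7.84, 6.23 and 8.18 CPM, a log2 fold change of 4.24 ± 0.12 (SE; edgeR adjusted p = 2.1e-22). Its coding sequence is close to that of *Acta2*, and how reads shared by both were assigned was not tested. *Mylk*, the kinase that phosphorylates myosin light chain, was at 222 ± 27.9 and 24.1 ± 2.19 CPM, with a log2 fold change of 3.15. *Ppp1r14a*, the inhibitor of myosin phosphatase, rose by 3.11, and *Lmod1*, leiomodin, by 2.35. *Flna* (filamin A) rose by 1.36 and *Csrp1* by 1.09 on the log2 scale. *Des* and *Synpo2* rose by 0.47 and 0.51, and both were more abundant in skeletal muscle-rich spots than here, as given later. The call of *Des* was kept in 17 of 18 alternatives, with log2 fold changes between 0.16 and 1.88. *Hspb6* and *Nexn*, which skeletal muscle shares, were lower by -1.12 and -0.92. In the actin family *Actb* and *Actg1* rose by 0.36 and 0.53, *Acta1*, skeletal α-actin, was lower by -1.88, and cardiac *Actc1* had 0 UMIs in the smooth muscle-rich spots.

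Receptors and channels of smooth muscle were sparse. Of 24 listed, 12 reached the filter level in every sum of the other spots, and of these 5 were higher and 1 lower. Another 5, *Adra1a*, *Adra1b*, *Cacna1c*, *Gucy1b1* and *Kcnmb1*, were tested only because they reached it in the smooth muscle-rich spots, so their levels are given as a description. *Adra1a*, the α1A-adrenergic receptor through which sympathetic nerves contract smooth muscle, had 13 UMIs in the smooth muscle-rich spots and 22 in all others, at 4.74 ± 1.56 and 0.24 ± 0.11 CPM. *Kcnmb1*, the β subunit of the calcium-activated potassium channel, had 15 and 21 UMIs. *Mrvi1*, a partner of the IP3 receptor, stood at 18.2 and 2.03 CPM (3.12). The muscarinic receptor *Chrm2* had 0 UMIs in the smooth muscle-rich spots. *Ednrb*, an endothelin receptor, was the gene that was lower (-0.97). Of 9 tested regulators, *Gata6* was higher (1.60) and the Notch target *Heyl* lower (-1.09), and *Srf* was at 3.98 and 4.56 CPM without passing the test.

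Of 10 listed arrector pili genes, 6 reached the filter level in the other spots and all 6 were higher (median 2.40). Besides *Actg2*, *Des* and *Synpo2* these were *Itga8* (23.4 ± 2.11 against 3.26 ± 0.39 CPM, 2.79 ± 0.26), *Npnt* (40.03 ± 8.63 against 9.62 ± 1.196 CPM, 2.02) and *Pcp4l1* (21.8 ± 4.70 against 2.60 ± 0.62 CPM, 3.01). Of 19 pericyte and mural genes, 9 were higher and 1 lower (median 0.76). *Ndufa4l2* rose by 1.88, but it was detected in 85.3 ± 5.48% of the other epidermis-rich spots, against 58.6 ± 8.83% of the smooth muscle-rich spots and 26.8 ± 2.97% of all other kept spots. Within 2 steps of the epidermis it was at 169 ± 38.4 CPM in the smooth muscle-rich spots and at 154 ± 19.5 and 159 ± 32.4 CPM at 1 and 2 steps from them. *Mcam* rose by 1.43, *Pdgfrb* by 0.90, *Rgs5* by 0.82 and *Cspg4* by 0.67. Detection of *Rgs5* was 27.9 ± 4.61% in the smooth muscle-rich spots and 31.0 ± 0.96% in all other kept spots. After thinning to 5500 UMIs these shares were 18.3 ± 8.46% and 16.7 ± 1.02%. *Rgs5* and *Pdgfrb* each lost the call in 2 of 18 alternatives, with the spots chosen again after thinning to 5500 UMIs, and with the top 2% of spots (*Rgs5*, 0.19) or spots at 0 to 2 steps alone (*Pdgfrb*, 0.29). *Notch3*, *Kcnj8*, *Abcc9* and *Vtn*, markers of pericytes and vascular smooth muscle, were at 40.8, 6.39, 9.81 and 4.31 CPM against 35.3, 5.50, 9.39 and 4.32 CPM and did not pass the test.

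Endothelial genes were higher in 10 of 18 cases (median 0.71), among them *Cldn5* (1.35) and *Pecam1* (0.85), while *Cdh5*, *Kdr* and *Tek* did not pass. All 5 lymphatic genes were higher (median 1.76), *Prox1* among them having passed the filter only through the smooth muscle-rich spots. Of 7 dermal sheath genes 4 were higher (among them *Itga8*, *Itga5* and *Enpp2*, at 2.79, 1.82 and 1.53), and *Col11a1* and *Mef2c* were not. *Acan*, another dermal sheath gene, was at 0.38 and 0.85 CPM and was not tested. Of 13 dermal papilla genes 5 were higher and 4 lower, with *Corin*, *Wif1* and *Lef1* lower by -1.86, -1.60 and -1.65. *Prom1*, called higher, was under the filter level in the other spots. The 12 dermal papilla genes at that level gave 4 higher and 4 lower (median -0.33).

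The smooth muscle-rich spots also carried the tissue around them. Of 16 fibroblast genes 15 were higher (median 1.47), and of 12 elastic fibre genes 11 (median 1.32), led by *Mfap4* (2.38) and elastin, *Eln* (2.23). Of 11 sebaceous gland genes 10 were higher (median 2.39), with *Awat1*, a wax synthase, at 2.75 and *Scd3* at 2.57. *Dgat2l6* among them was under the filter level in the other spots. The 10 sebaceous gland genes at that level gave 9 higher (median 2.28). Bulge genes were higher in 8 of 11 cases, with *Krt15* at 1508 ± 155 and 528 ± 67.9 CPM. Immune genes were higher in 16 of 17 cases, with *Cd74* at 674 and 121 CPM. Of 13 Schwann cell genes 9 were higher, and of 6 nerve guidance and trophic genes at the filter level in the other spots 5. *Ntf3*, neurotrophin-3, was below that level there, at 7.90 and 0.69 CPM. All 18 skeletal muscle genes and all 15 hair matrix and shaft genes were lower, with medians of -1.84 and -1.09. For the skeletal muscle list, the median spot held 1306 CPM among smooth muscle-rich and 1321 CPM among other spots, averaged over slices. Of the remaining lists, basement membrane and integrin genes gave 15 higher and 1 lower of 22, arterial genes 5 and 0 of 9, epidermal genes 10 and 3 of 13, adipocyte genes 0 and 4 of 10, and immediate-early genes 6 and 2 of 13. The arterial gene *Gja5*, called higher, was under the filter level in the other spots. The 8 arterial genes at that level gave 4 higher and 0 lower. The mitochondrial share of UMIs was 3.97%, 5.12%, 5.20% and 5.81% in smooth muscle-rich spots and 3.42%, 4.44%, 4.62% and 5.20% in the others, and the part of this share in the calls was not tested. With each spot thinned to 5500 UMIs, shallower spots left out and the top 4% chosen again on the thinned counts (63, 62, 55 and 53 spots), 1184 genes were higher and 1078 lower. Depth and membership changed together there, and their parts were not told apart.

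By the naming rule, the 20 genes with the largest rise among those at 20 CPM or more and higher in 4 of 4 slices were led by *Nptx2*, neuronal pentraxin 2, at 40.5, 63.8, 60.1 and 41.2 CPM in slices 1 to 4 against 3.10, 2.30, 2.17 and 2.03 CPM (log2 fold change 4.34 ± 0.23). *Actg2*, *Mylk*, *Ppp1r14a*, *Pcp4l1* and *Itga8* were among them. *Igkc*, the immunoglobulin κ constant region of plasma cells, was uneven, at 107, 62.3, 28.5 and 11.8 CPM against 3.10, 1.58, 8.16 and 6.63 CPM (3.49). *Hsd3b6*, *Cyp17a1*, *Aadac*, *Awat1*, *Fa2h* and *Aldh3a1*, enzymes of steroid, lipid and aldehyde metabolism, rose by between 2.68 and 2.97. *Serpina3j*, *Serpina3b*, *Fmod* (fibromodulin, a collagen-binding proteoglycan), *Gzmc*, *Clstn3*, *Gm13889* and *C130079G13Rik* completed the list. The *Serpina3* genes are near-identical copies, and their split is uncertain. The 10 largest falls were in *Mycn*, a matrix gene, and 9 genes of skeletal muscle, including titin, *Ttn* (-2.05), and myoglobin, *Mb* (-2.05).

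These groups of spots also differed in position, so the smooth muscle-rich spots at 1 step from the epidermis were set against the other spots at the same step. This comparison was added after the distances were seen. It held 40, 37, 38 and 32 smooth muscle-rich spots and 160, 168, 165 and 137 others in slices 1 to 4. Their median UMIs were 10596.5, 9318, 8764.5 and 11979 against 10619.5, 7066.5, 7045 and 9333. Of 8370 genes tested, 124 were higher (1.48%) and 90 lower (1.08%), and 37 were at least 2-fold higher. Of these genes 1097 were below the filter level of 11.5 CPM in at least 1 sum of the other spots, and 24 of them were called higher and 0 lower, which leaves 100 higher and 90 lower among 7273. The count rests on the slice block: without it 38 genes were higher and 0 lower, with 1028 genes at an unadjusted p under 0.05 in the blocked fit, and DESeq2 called 40 and 21. Leaving out slice 1 gave 81 higher and 48 lower, and leaving out slice 4 gave 113 and 67.

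By p-value, though not by fold change, genes of the contractile apparatus took the first places at matched position. *Actg2* stood at 155, 234, 204 and 202 CPM in the smooth muscle-rich spots of slices 1 to 4 and at 22.0, 29.98, 17.6 and 22.7 CPM in the others, so the groups did not overlap (log2 fold change 3.08 ± 0.15, edgeR adjusted p = 2.0e-16). *Mylk* stood at 250, 320, 250 and 254 CPM against 62.6, 66.1, 60.3 and 54.0 CPM (2.13 ± 0.12, adjusted p = 4.0e-15). *Des* stood at 218, 305, 229 and 283 CPM against 51.3, 61.5, 77.1 and 65.3 CPM (2.01 ± 0.12, adjusted p = 9.4e-14). The 3 genes were higher in 4 of 4 slices with every smooth muscle-rich value above every other value. How many of all tested genes separate in this way is not given here. Separation alone, for these genes and those below, is therefore a description. Of 23 contractile genes 11 were higher and 0 lower, with a median of 0.60 beside 0.00 over all genes tested. Of the 17 that reached the filter level in every sum of the other spots, 8 were higher and 0 lower (median 0.40). Besides *Actg2*, *Mylk* and *Des*, the 11 higher genes were *Lmod1* (2.48), *Synpo2* (1.70), *Ppp1r14a* (1.68), *Ppp1r12b* (1.24), *Flna* (0.95), *Aoc3* (0.92), *Tpm2* (0.60) and *Csrp1* (0.39). Of these, *Lmod1*, *Synpo2* and *Ppp1r12b* were under the filter level in the other spots of at least 1 slice. *Smtn*, *Cald1*, *Tpm1* and *Actn1* were at 173, 234, 987 and 285 CPM against 188, 259, 1038 and 305 CPM and did not pass the test.

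Of 19 tested basement membrane and integrin genes, 6 were higher and 0 lower at this position (median 0.32). The 17 that reached the filter level in every sum of the other spots gave 5 higher and 0 lower (median 0.30). *Itga8* (GRCm38 chr2:12106632-12301922, minus strand) stood at 34.1, 28.5, 27.2 and 35.1 CPM against 11.8, 8.46, 4.58 and 6.39 CPM (1.95 ± 0.31, edgeR adjusted p = 8.8e-05). *Npnt* (chr3:132881745-132950291, minus strand) stood at 59.2, 48.5, 40.8 and 59.4 CPM against 15.8, 23.1, 22.9 and 25.6 CPM (1.27 ± 0.22, adjusted p = 0.00041). For both genes the slices of the groups did not overlap. *Itga1*, the collagen-binding integrin α1, rose by 1.12, a call kept in 6 of 12 alternatives and lost without slice 1 or slice 3, and the laminin chains *Lama4* and *Lamb2* by 0.61 each. In all, 5 of 6 tested arrector pili genes were higher (median 1.82), and 3 of the 6 reached the filter level in every sum of the other spots, all 3 of them higher. The others, *Itga8*, *Synpo2* and *Pcp4l1*, reached it in every sum of the smooth muscle-rich spots and not of the others, as did the contractile gene *Lmod1*. *Pcp4l1* was at 22.2 ± 4.54 against 10.2 ± 5.76 CPM and did not pass.

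**Figure D4:**
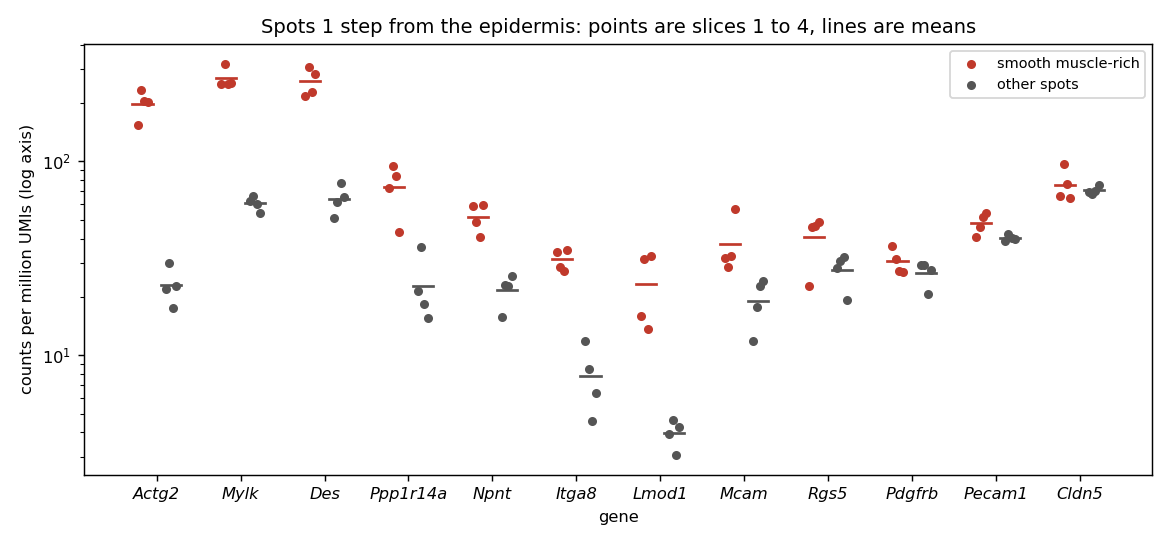
Level (CPM, log axis) of 12 genes in spots 1 step from the epidermis, with a point for each of the 4 slices and a line at the mean, in smooth muscle-rich (red) and other (grey) spots. The groups separate for *Actg2*, *Mylk*, *Des*, *Ppp1r14a*, *Npnt*, *Itga8*, *Lmod1* and *Mcam*, and overlap for *Rgs5* and *Pdgfrb*. The share of all tested genes that separate is not given.

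Vessel-associated lists held few testable genes at this position, beside a share of 1.48% called higher over all genes, and were not tested against the contractile ones. Of 8 tested pericyte and mural genes 1 was higher (median 0.48). This was *Mcam*, an adhesion molecule of endothelium, pericytes and smooth muscle, at 31.9, 28.5, 32.6 and 56.7 CPM against 11.8, 17.7, 22.9 and 24.1 CPM (0.98). The call was kept in 7 of 11 alternatives and lost without slice 1 or slice 4. *Rgs5* was at 22.8, 45.7, 46.2 and 48.6 CPM against 28.2, 30.8, 32.1 and 19.2 CPM, with overlapping groups (0.53, edgeR adjusted p = 0.34). *Pdgfrb* and *Notch3* were at 30.5 and 38.3 CPM against 26.7 and 35.7 CPM. Of 12 endothelial genes *Aqp1*, a water channel, was higher (1.01), and *Pecam1* and *Cldn5* were at 48.1 and 76.0 CPM against 40.4 and 70.9 CPM. The 3 arterial and 4 lymphatic genes tested gave 0 calls, with medians of -0.12 and -0.08. Of 3 dermal sheath genes *Enpp2*, autotaxin (1.07), and *Itga8* were higher, and *Itga8* is shared with the arrector pili list. *Itga8* and *Mef2c* were under the filter level in the other spots of at least 1 slice. That leaves *Enpp2* as the 1 dermal sheath gene at that level there. A p that misses the threshold does not show equal levels.

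The 10 arrector pili genes summed to 611 ± 71.8 CPM in the smooth muscle-rich spots and 140 ± 5.52 CPM in the others at 1 step, with *Des* the most abundant. The 20 pericyte and mural genes summed to 401, 488, 435 and 607 CPM against 397, 394, 331 and 347 CPM, with *Ndufa4l2* the most abundant, and the 18 endothelial genes to 572 ± 103 and 426 ± 41.4 CPM. The 18 skeletal muscle genes summed to 1249, 1413, 1681 and 5681 CPM against 1519, 1500, 2771 and 3134 CPM. Slice 4 was high in skeletal muscle transcripts, and 0 of 16 tested skeletal muscle genes passed. The part of these levels in the other results was not tested.

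Lists of the surrounding tissue gave fewer calls here, where the sums were smaller and the smooth muscle-rich spots were shared with the first comparison. Sebaceous gland genes gave 0 calls of 9 (median 0.29), and bulge genes gave 2 higher, *Npnt* and *Cd34* (0.37), and 1 lower, *Sox9* (-0.37), of 10. The call of *Cd34* was kept in 8 of 13 alternatives (lost without slice 2 or 3) and that of *Sox9* in 5 of 13 (lost without slice 3 or 4). Fibroblast genes were higher in 7 of 16 cases (median 0.49), with *Col1a1* at 14078 and 9848 CPM (0.53), and elastic fibre genes in 4 of 12, with *Lox*, the collagen and elastin cross-linking enzyme, at 0.68 and *Eln* at 0.58. Of 11 immune genes 5 were higher, among them *H2-Aa* (0.67), *Cd74* (0.58) and *C1qb* (0.82).

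**Figure D5:**
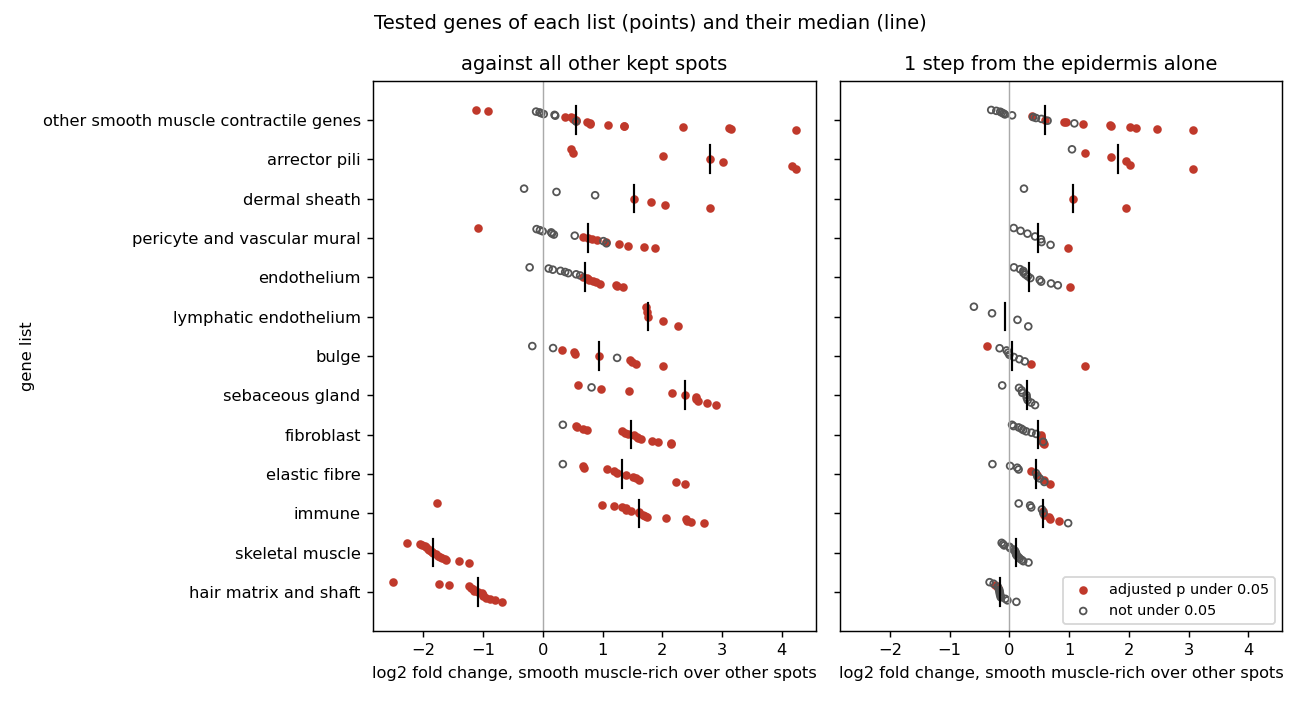
Log2 fold change of each tested gene (points; red, adjusted p under 0.05) with the list median (line) for 13 lists, in smooth muscle-rich spots against all other kept spots (left) and against other spots 1 step from the epidermis (right). Contractile and arrector pili genes have medians of 0.60 and 1.82 on the right, while sebaceous and lymphatic medians go from 2.39 and 1.76 to 0.29 and -0.08. Medians are over the tested genes, with those under the filter level in the other spots included.

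The naming rule gave further genes for the matched comparison. *Nptx2* stood at 52.3, 82.8, 78.9 and 54.0 CPM against 12.97, 11.5, 9.92 and 9.94 CPM (2.53). *Fbxl22*, which carries one of the CArG boxes shown above, stood at 27.3, 42.8, 29.9 and 37.8 CPM against 1.69, 9.23, 6.11 and 7.10 CPM (2.53). Neither gene's groups overlapped, and both genes were under the filter level in the other spots of at least 1 slice. *Jph2*, which couples the plasma membrane to the calcium store in muscle, rose by 1.83, *Plcb4*, a phospholipase C, by 1.66, *Pgm5*, a cytoskeletal protein of adherens junctions, by 1.45 and *Tgfb1i1*, a focal adhesion protein, by 1.31. The call of *Pgm5* was kept in 5 of 11 alternatives and lost without slice 1, 3 or 4, and that of *Tgfb1i1* in 3 of 9, lost without slice 1, 2 or 3. *Pcp4*, *Mustn1*, *Ckb*, *Sparcl1*, *Galnt16* and *Gm13889* rose by between 1.27 and 2.17. *Jph2*, *Plcb4*, *Pgm5*, *Tgfb1i1*, *Pcp4*, *Galnt16* and *Gm13889* were also under the filter level in the other spots of at least 1 slice. The call of *Mustn1* was kept in 8 of 11 alternatives (lost without slice 1 or 2), that of *Galnt16* in 10 of 11 (lost without slice 1) and that of *Pcp4* in 7 of 8 (lost without slice 2). Among the 94 genes called higher with a promoter window, 4 held a CArG box (4.26%), beside 107 of 6659 genes tested (1.61%). In the comparison with all other spots, 30 of 1845 higher genes held one (1.63%), beside 157 of 10663 tested (1.47%). The largest fall was in *Smad2* (-1.23), and the others of the 10, such as *Krtap4-9* and *Klk10*, were between -0.59 and -0.85. The call of *Smad2* was kept in 7 of 11 alternatives and lost without slice 1, and those of the others were kept in between 2 of 12 (*Cited4*) and 11 of 13 (*Klk10*).

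*Egr2*, the locus that carried the Cre, was at 54.4 ± 7.52 CPM in the smooth muscle-rich and 32.9 ± 4.05 CPM in the other kept spots (0.67). At 1 step it was at 50.1, 65.7, 59.8 and 75.6 CPM against 60.9, 78.4, 81.7 and 95.2 CPM (-0.34, edgeR adjusted p = 0.35). *Lrig1*, a stem cell gene of the upper follicle, behaved alike, with 0.70 and -0.11. *Nes*, nestin, was at 14.98 and 19.3 CPM and did not pass in either comparison. The *tdTomato* reporter had 4 UMIs in the smooth muscle-rich spots and 99 in the others, and did not pass.

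Marker lists were then scored spot by spot. A spot was counted for a list when its summed CPM was above the 90th percentile of the other spots of its slice, which fixes a share of about 10% in those spots. The other spots lay at all distances from the epidermis, so the shares below were not matched for position. The part of position in them was not tested. Among the smooth muscle-rich spots the share was 29.1 ± 3.86% (SD, n = 4) for arrector pili genes, 31.5 ± 5.84% for pericyte and mural genes, 33.9 ± 3.74% for dermal sheath genes and 21.6 ± 2.26% for endothelium. After thinning to 5500 UMIs, with the spots chosen again, these shares were 20.7%, 19.4%, 22.3% and 23.3% in the same order, and with the 95th percentile as the threshold, which about 5% of the other spots pass, they were 10.1%, 18.5%, 21.04% and 16.7%, so the order of the lists depends on the setting. *Ndufa4l2*, which most epidermis-rich spots also held, was the most abundant gene of the pericyte and mural list, and its part in that share was not tested. For fibroblast genes the share was 51.0 ± 3.35% and for skeletal muscle genes 1.19 ± 1.47%. The median spot held 387 CPM of the arrector pili list against 53.9 CPM in the other spots. *Des*, a gene of that list, was at 1263 CPM in skeletal muscle-rich spots, as given later, and its part in the share was not tested. The lists marked partly different spots. Of the 256 spots, 35 were above the threshold for arrector pili and for neither pericyte nor endothelium, 73 for pericyte or endothelium and not arrector pili, 40 for both, and 81 for none of these or the dermal sheath list. Of the 75 arrector pili spots 40 were also dermal sheath spots, a share of 53.3%, which is 46.0% of the 87 dermal sheath spots, and the lists share *Itga8*.

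Regions chosen in the same way, by 5 genes each and with shared spots left out on both sides, gave further comparisons. Endothelium-rich spots (*Pecam1*, *Cdh5*, *Emcn*, *Egfl7* and *Eng*) shared 21 of the 256 spots, 8.20% of each. Against them 861 of 7659 genes were higher in smooth muscle-rich spots (11.2%) and 673 lower (8.79%). *Nptx2* (5.05, with 4 UMIs in the endothelium-rich spots) and *Actg2* (3.80) led, and *Ppp1r14a*, *Itga8*, *Mylk* and *Npnt* rose by 2.39, 2.39, 2.18 and 1.38. Except for *Mylk*, these genes were under the filter level of 15.2 CPM in at least 1 sum of the endothelium-rich spots. The 19 contractile genes at that level there gave 5 higher and 6 lower (median -0.10). Of 10 pericyte and mural genes 2 were higher (*Ndufa4l2* and *Cspg4*) and 4 lower, *Rgs5* by -0.79 and *Notch3* by -0.57 among them. Of 10 endothelial genes 8 were lower, with *Aqp1* at -1.70. All 18 skeletal muscle genes were lower too (median -2.73), and the endothelium-rich spots held skeletal muscle transcripts at a summed 16984 CPM against 2662 CPM.

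Fibroblast-rich spots (*Col1a1*, *Col1a2*, *Col3a1*, *Dcn* and *Lum*) overlapped most among the regions chosen by 5 genes, sharing 59 spots, 23.0% of each. Of 6581 genes 80 were higher in smooth muscle-rich spots (1.22%) and 156 lower (2.37%). This split moved to 117 and 131 with scaling to library size alone. Contractile genes were higher in 11 of 18 cases, *Actg2* by 2.72, *Aoc3* by 1.56 and *Mylk* by 1.37. *Actg2* and *Aoc3* were under the filter level of 19.3 CPM in at least 1 sum of the fibroblast-rich spots. The 14 contractile genes at that level there gave 9 higher and 0 lower (median 0.53). Here 3 of 8 pericyte genes were higher, *Mcam* (1.17), *Cspg4* (0.96) and *Rgs5* (79.1 against 40.9 CPM, 0.87), and *Ndufa4l2* was lower (-1.24). *Mcam* and *Cspg4* were under the filter level in at least 1 sum of the fibroblast-rich spots. The 5 pericyte genes at that level there gave 1 higher and 1 lower (median -0.82). The call of *Mcam* was lost on leaving out any 1 slice and kept in 4 of 9 alternatives. Endothelial genes gave 0 calls of 10 (median 0.13). *Sparc* (-1.39), *Ctsk* (-1.37), *Cpz* (-1.89) and *Mmp3* (-1.68), genes of matrix assembly and turnover, were lower. *Xist*, the noncoding RNA of the inactive X chromosome, was at 59.1 against 24.6 CPM (1.19), beside 51.5 against 43.7 CPM in the comparison with all other spots. The spots of each mouse were not told apart, and the part of this in the comparison was not tested.

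Skeletal muscle-rich spots (*Acta1*, *Ckm*, *Mylpf*, *Tnnt3* and *Tnni2*) shared 1 spot, 0.39% of each. Of 7805 genes 1982 were higher (25.4%) and 1986 lower (25.4%), and with scaling to library size alone the split was 2953 and 1215, a shift of the median gene to 0.26 on the log2 scale. *Actg2* (4.50), *Mylk* (3.91) and *Ppp1r14a* (3.78) were higher in smooth muscle-rich spots, while *Des* (207 against 1263 CPM), *Synpo2* (34.5 against 169 CPM), *Synm* and *Hspb6* were lower. *Actg2*, *Mylk* and *Ppp1r14a* were under the filter level of 13.9 CPM in at least 1 sum of the skeletal muscle-rich spots. The 19 contractile genes at that level there gave 6 higher and 10 lower (median -0.95).

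The few spots far from the epidermis differed from the rest. With each slice divided at its median of 4 steps, 239 smooth muscle-rich spots were superficial and 17 deep, with 3, 4, 6 and 4 in slices 1 to 4, and the deep sums held 267990 UMIs. The score genes, which chose both, were less unequal: *Acta2* at 677 ± 123 and 475 ± 102 CPM. *Actg2* had 418 UMIs in superficial and 1 in deep spots, a ratio of 44.8 with an exact 95% interval of 7.99 to 1772 for counting error alone. *Ndufa4l2* had 411 and 1 UMIs, and *Nptx2* 141 and 0, which makes it at least 5.03-fold higher when the deep spots together are given 3 UMIs. *Mylk* was at 242 ± 30.4 and 51.9 ± 36.2 CPM (2.44). *Npnt* had 110 and 2 UMIs, a ratio of 5.89 (1.59 to 49.3), and *Itga8* 63 and 2, a ratio of 3.37 whose interval of 0.90 to 28.5 includes 1.

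Of 5026 genes 393 were higher in the superficial spots (7.82%) and 236 lower (4.70%). How many of them, and of the lists below, reached the level of the low-count filter in both groups was not counted. *Hba-a1*, haemoglobin α, was at 218, 179, 109 and 313 CPM in the superficial and 998, 528, 988 and 2487 CPM in the deep spots (-2.48 ± 0.23), the red-cell transcript being higher in every deep sum. Its change with depth in the other kept spots is not given here. *Fgf5*, a growth factor of the follicle, was at 11.2 ± 1.88 and 86.9 ± 56.8 CPM (-2.86). It was under the filter level in every superficial sum, so it was tested only through the deep spots. *Rgs5* and *Pecam1* were at 59.7 and 45.5 CPM against 135 ± 87.3 and 93.9 ± 60.2 CPM, uneven between slices, and did not pass. Of 15 skeletal muscle genes 14 were lower and of 8 sebaceous gland genes 8 higher in the superficial spots.

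To take the layers out, the superficial-to-deep change in smooth muscle-rich spots was set against that in other spots as an interaction. Of 12949 genes 416 had a more positive change in the smooth muscle-rich spots (3.21%) and 202 a more negative one (1.56%). The split turned with the scaling, to 79 and 315 under library size alone, which moved the median gene from 0.39 to 0.05 on the log2 scale. *Des* was at 219 CPM in superficial and 202 CPM in deep smooth muscle-rich spots, against 44.4 and 233 CPM in other spots (interaction 3.17 ± 0.28). The deep value of slice 1, 573 CPM from 3 spots, was above the 99.1, 72.0 and 63.4 CPM of slices 2 to 4.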

How the data were processed

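Visium libraries of polyadenylated RNA from 4 slices were processed by the authors with Space Ranger 2.0.1 against mm10, and the deposited counts are whole UMIs per gene and spot, not normalized, with array positions; 9 of 6420 spots fell below 250 genes. The annotation release is not given in the sources used here. Spots are not replicates, so counts were summed per slice and class and tested with edgeR 4.0.16 (quasi-likelihood, TMM scaling, filterByExpr) in R 4.3.3, with the slice as a block because both classes came from the same section (correlations of same-slice deviations, 0.07 to 0.17 against all other spots and 0.08 to 0.22 at 1 step), and with adjusted p under 0.05. CPM are per 1000000 UMIs of the summed class. Thinning to 5500 UMIs left out spots with fewer (3, 15, 7 and 7 of the smooth muscle-rich ones), and the classes were then chosen again on the thinned counts. DESeq2 1.42.0 and other score settings were alternatives. Intervals cover counting error only.

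Named genes were, at 20 CPM or more, called and in 4 of 4 slices in one direction, the 20 largest rises and 10 largest falls (10 and 10 against other regions and depths, 5 and 5 for the interaction), with genes of fixed lists. The comparison at 1 step, added after the distances were seen, used the first of these rules. The spots and lists were chosen with earlier results of these data known. Of 328 listed genes, 2 were not matched in the table. Coordinates are from GENCODE M21 (GRCm38) and promoters from RefSeq (GRCm38.p6). The edgeR fit of the first comparison was tested on simulated counts drawn without differences between slices, and the other comparisons were not simulated. 1 listed gene is not reported here by name.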

Additional observations from a re-analysis of the deposited data

Results flagged for a closer look

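With 74 sets of 4 slices examined, 6 held a slice far from the other 3, and chance flags about 1 set in 20. The log2 ratio of *Ppp1r14a* against all other spots was 2.616 in slice 4 beside 3.08, 3.17 and 3.09, and that of *Fmod* was 3.249 in slice 1 beside 2.47, 2.39 and 2.42. At 1 step from the epidermis, *Fbxl22* was at 3.395 in slice 1 beside 2.10, 2.12 and 2.26, *Galnt16* at 0.8624 in slice 4 beside 1.72, 1.74 and 1.61, and *Cited4* at -0.5195 in slice 2 beside -0.58, -0.59 and -0.58. The other kept spots of slice 1 had a median of 14830 UMIs, above the 12176, 12056 and 11666.5 of slices 2 to 4.

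The superficial-to-deep change differed between smooth muscle-rich and other spots, by the interaction test in edgeR, for the genes named by rule. It was more positive in smooth muscle-rich spots for *Des* (3.174), *Synpo2* (2.706), *Mybpc1* (2.568), *Pdlim3* (2.546) and *Tbc1d20* (2.439), on the log2 scale. It was more negative for *Adamts20* (-4.455), *Edn2* (-3.597), *AU018091* (-3.58), *Galnt14* (-3.296) and *Dio3os* (-3.113). These rest on 17 deep smooth muscle-rich spots. *Galnt14*, *Dio3os* and *Edn2* had 6, 7 and 9 UMIs in those deep spots, and their calls were kept in 6, 7 and 9 of 12 alternatives (lost without slice 1, 2 or 3 for *Galnt14* and *Dio3os* and without slice 3 for *Edn2*). *Tbc1d20* had 4 UMIs in the deep spots and kept its call in 9 of 12 alternatives (lost without slice 1), *Mybpc1* in 10 of 12, *Adamts20* in 11 of 12, and *Des*, *Synpo2*, *Pdlim3* and *AU018091* in 12 of 12.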

How the results depend on the processing

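For the leading genes of each comparison and the main muscle and pericyte markers, not for every gene named above, direction and side of the threshold were kept in 2029 of 2197 alternatives, with 154 weaker, 3 stronger, 6 moved and 5 reversed. The reversed ones came with spots at 0 to 2 steps alone (chosen after seeing the data), where *Mb*, *Ttn* and *Actn2* were at 0.0060, 0.028 and 0.13 and *Egr2* and *Lrig1* at -0.29 and -0.20; there 613 genes were higher and 424 lower than in other spots. *Actg2* at 1 step stayed between 2.79 and 3.47 and past the threshold. The cause of the changes below was not tested.

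With the top 8% of spots the distance difference was -2.38 steps and the adjacent share 21.9%, and with the top 2% that share was 9.19%. Thinned to 5500 UMIs with the classes chosen again, 20.7% of spots passed for arrector pili and 19.4% for pericyte genes, and at the 95th percentile 10.1% and 18.5%. Counts are given as higher and lower. DESeq2 gave 1557 lower against other spots, 356 and 193 against endothelium-rich, 12 and 53 against fibroblast-rich, 1182 and 1212 against skeletal muscle-rich spots, 215 and 94 for superficial against deep, 101 and 376 for the interaction and 40 and 21 at 1 step. Thinned, the counts were 1184 and 1078, 368 and 355, 29 higher (fibroblast-rich), 1082 and 1093, 196 and 149, 220 and 26, and 48 and 33. The top 2% gave 540 and 442 (endothelium-rich) and 1274 and 1316 (skeletal muscle-rich); with it the depth comparisons could not be fitted, as 3 slices held 0 deep spots. The top 8% gave 1040 lower (endothelium-rich), 174 and 384 (fibroblast-rich), 862 and 700 (depth) and 221 and 368 (interaction). Without a low-count filter the counts were 121 higher (fibroblast-rich), 642 and 119 (depth) and 165 lower (1 step). Library size alone gave 1215 lower (skeletal muscle-rich) and 79 and 315 (interaction). Epidermis at the top 5% gave 305 lower (interaction) and 54 lower (1 step), and at the top 15% 111 lower, and 276 and 178.

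Slices pair the classes by construction. With no replicate block, 41 genes were higher against fibroblast-rich spots, 271 for the interaction, and 38 higher and 0 lower at 1 step, and other counts stayed within 1.5 times. Leaving out 1 slice gave 605 to 735 higher and 413 to 570 lower (endothelium-rich; under 1.5 times only without slice 4), 47 to 80 and 98 to 162 (fibroblast-rich; fewest without slices 2 or 4), 244 to 335 and 143 to 219 (depth; fewest without slices 2 or 3), 169 to 263 and 127 to 212 (interaction) and 81 to 113 and 48 to 75 (1 step; fewest without slice 1).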
